A study of Homo sapiens with 2 samples.

Results

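The centromere of human chromosome 8 carried 1515 of the 24258 TRF2 peaks listed for HCT116, a colon cancer cell line. They were taken as all peaks on chromosome 8 whose summit lies from 43200000 to 47200000 in hg38, the cytogenetic centromere bands p11.1 and q11.1. Membership used position and no measured value, but these bands were chosen with earlier results of these data known. The 1515 peaks made up 6.25% of the list (exact binomial 95% interval 5.94% to 6.56%) and 72.0% of the 2104 peaks on that chromosome. HCT116 chromatin, fixed with formaldehyde and sonicated, was immunoprecipitated with an anti-TRF2 antibody to give 1 library, and the sonicated chromatin without antibody gave 1 input library, which serves as the control. No genotype change or agent is labelled, although the deposited peak list is named for a control siRNA, so whether the cells had been transfected is not settled. With 1 library per group no comparison here has a replicate check, and every interval covers counting error only. Neighbouring peaks are not independent of each other, so these intervals are too narrow.

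TRF2 is a subunit of shelterin, the complex that coats telomeres. It binds the double-stranded TTAGGG repeat directly, helps to fold the chromosome end into a loop and keeps the end from being treated as a DNA break. Human centromeres consist mainly of alpha satellite, a repeat whose monomers are arranged head to tail in larger repeat units that differ between chromosomes, and they are flanked by other satellites and segmental duplications. In hg38 the alpha satellite arrays are largely modelled sequence, so a position inside an array is a position in the model and need not be a place in the HCT116 genome. The sequence under the peaks was not analysed here, and neither the number of telomere repeats in them nor their repeat class is given.

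Most of the peaks of this centromere were small and shallow. Each deposited peak has a fold and a −log10 q, the significance given by the authors' peak caller. The fold is the immunoprecipitated read pileup over the input background at the summit, with the same constant added to both. It is therefore lower than the plain ratio of pileup to background, and its exact form is given under the processing of the data. The fold had a median of 4.23 (quartiles 3.71 and 4.91, range 2.26 to 36.8). At the summit the recovered pileup was typically 9 reads (median; quartiles 8 and 11), and 1108 peaks (73.1%, exact binomial interval 70.8% to 75.4%) had 7 to 11 reads. The median width was 123 bp, and 174 peaks (11.5%) had the smallest width in the list, 69 bp. Together the peaks covered 221.5 kb, or 5.54% of the 4 Mb of bands.

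Input was low under these peaks. The background had a median of 1.13, and at 559 peaks (36.9%, exact binomial interval 34.5% to 39.4%) it lay within 0.1% of the lowest value in the list, 1.05. A further 47 peaks lay just above that tolerance and also round to 1.05. At that minimum the fold is set by the number of immunoprecipitated reads alone, which gives a few repeated values. There were 68 such peaks with 6 reads and a fold of 3.41, 128 with 7 reads and a fold of 3.90, 112 with 8 reads and a fold of 4.39, and 96 with 9 reads and a fold of 4.88. The peaks above the minimum had a median fold of 4.17, against 4.39 for those at it. Only 6 peaks (0.396%) had a background of 5 or more, with a highest value of 12.4.

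The q-values graded these peaks as follows. At a q-value of at most 0.05 there were 1198 peaks (79.1%, exact binomial interval 76.9% to 81.1%), and in the whole list 79.3% passed that threshold, so the share was near the background. At a −log10 q of 5 or more, called strong here, there were 208 (13.7%, interval 12.0% to 15.6%), below the 30.0% of the whole list. A fold of 5 or more was reached by 362 peaks (23.9%), against 25.2% in the list, and a fold of 10 or more by 11 peaks (0.726%), against 1.96%. The centromere of chromosome 8 thus had a smaller share of strong peaks than the list as a whole. This was not particular to it, since over the 19 other centromeres with at least 100 peaks the share had a median of 15.8%.

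The peaks fell into 2 unlike parts, 1 short group of high fold near the short-arm edge and 1 long, dense block of ordinary fold that held 198 of the 208 strong peaks. Of 40 bins of 100 kb, 13 held no peak, and the longest empty stretch was the last 6 bins, from 46600001 to 47200000. Joining summits up to 20 kb apart gave a block of 1481 peaks, 97.8% of all, between summits at 44035345 and 45876525. This block was delimited from the peaks themselves, so its density of 804 peaks per Mb over 1.84 Mb is a description. The joining rule itself puts a gap of more than 20 kb on each side of the block. These gaps were 53.2 kb before and 52.2 kb after it. Whether the assembly has unknown bases there was not analysed here. Apart from the block and the high-fold group, only 27 peaks lay in the bands (12.5 per Mb).

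**Figure D1:**
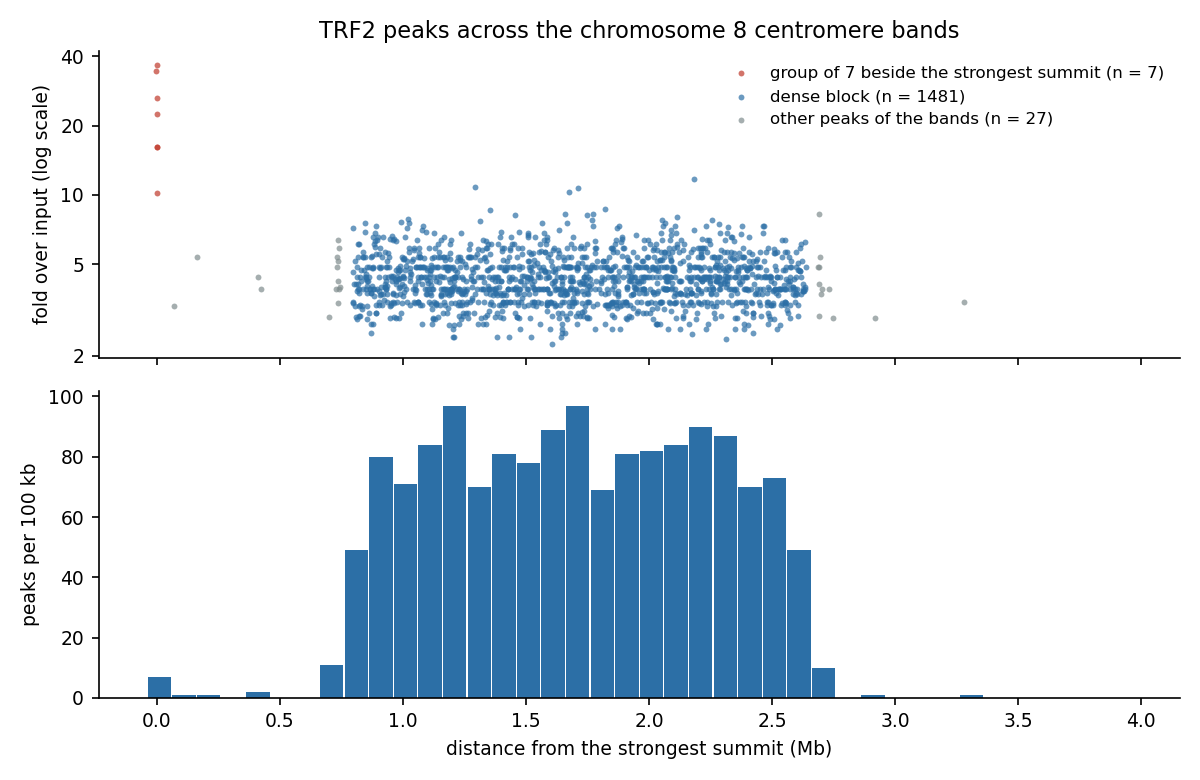
Upper panel: fold over input (log scale) of each of the 1515 peaks against the distance of its summit from the strongest summit of the bands, in Mb; red marks the 7 peaks within 10 kb of that summit, blue the 1481 peaks of the dense block and grey the other 27. Lower panel: number of peaks in each 100 kb bin. The 7 red peaks have folds of 10.2 to 36.8, whereas the block has 69 to 97 peaks in each bin wholly inside it and no fold above 11.7.

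The high-fold group comprised 7 peaks within 4325 bp, from 43237605 to 43241929 in band p11.1. Its first peak (43237605 to 43238161) had 70 reads and a fold of 34.6. The next (43238282 to 43238391) was the weakest of the group, with 20 reads and a fold of 10.2. The peak from 43238625 to 43238770 had 53 reads and a fold of 26.3. These 3 were followed by the strongest peak of the bands (43239600 to 43240203), which was also the widest at 604 bp and had 98 reads, a fold of 36.8 and a −log10 q of 127. Reads then declined along the group. The peak from 43240613 to 43241077 had 45 reads and a fold of 22.4. The last 2, from 43241402 to 43241609 and from 43241704 to 43241929, had 32 reads and a fold of 16.1 each.

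All 7 passed the −log10 q threshold of 5, and they were 7 of the 11 highest folds of the bands. Their ranks by fold in the whole list were 4, 435, 9, 2, 15, 64 and 64, the last 2 tied. The peaks covered 53.5% of the stretch, and neighbouring summits lay 560, 370, 988, 1112, 655 and 404 bp apart, with no common step. Input did not rise with them: 6 of the 7 had the minimum background of 1.05, and the strongest had 1.69. The next summit lay 68.6 kb away and had a fold of 3.29. How reads that align equally well to several places were treated is not known here, so whether all of these reads came from this stretch was not tested.

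**Figure D2:**
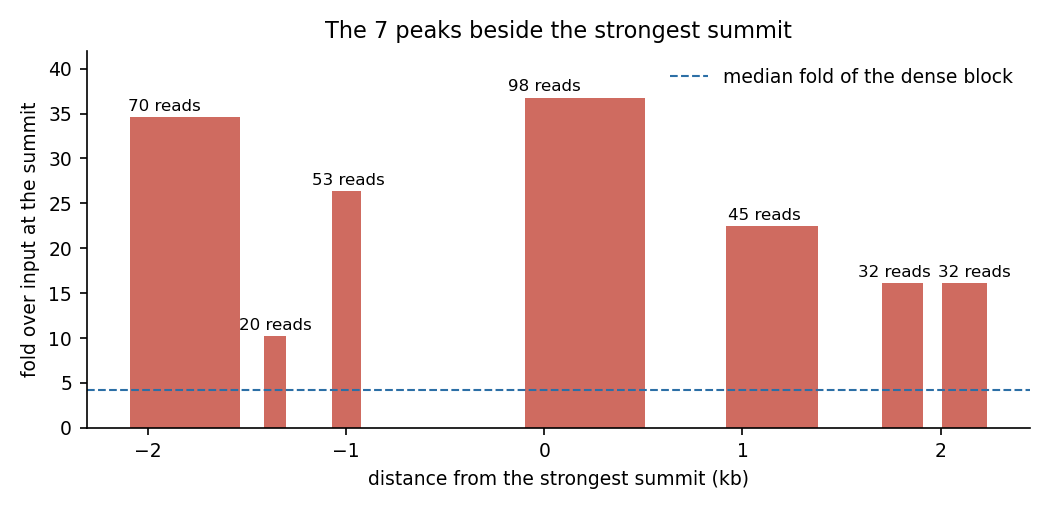
Fold over input at the summit of each of the 7 peaks of the high-fold group; a bar spans the peak's interval, as distance in kb from the strongest summit, and the number above it is its read pileup. Every bar, from 10.2 to 36.8, stands above the dashed line, the median fold of the dense block (4.23).

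Groups of high fold occurred elsewhere too. Joining peaks of fold 10 or more up to 10 kb apart gave 33 groups of at least 3 peaks over the whole list, and 9 of them, the chromosome 8 group included, had 7 or more. Among these 33 the chromosome 8 group had the highest median fold, 22.4, against 10.4 to 15.6 in the other 32. Its median background of 1.05 was at the minimum, which was so in 2 of the other groups, whose range was 1.05 to 6.79. The groups were formed by fold, so these values describe and test nothing.

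No annotated gene overlapped the high-fold group. In the RefSeq table of the same assembly (GRCh38.p14) the closest genes were pseudogenes. LOC101059977 (43246257 to 43247108) lay 4.39 kb from the nearest summit. AFG3L2P1 (43251413 to 43272105), named as a relative of a mitochondrial protease gene, lay 9.55 kb from it. On the other side VN1R46P (43219928 to 43220809), a pseudogene of the vomeronasal receptor family, was 17.0 kb from the first summit of the group. The nearest protein-coding gene on that side, HGSNAT (43140464 to 43202855), encodes a lysosomal enzyme of heparan sulfate breakdown. It crosses the edge of the band and was 34.9 kb from the first summit.

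The bands held 44 annotated genes, 25 of them pseudogenes, 11 long noncoding RNAs and 5 protein-coding, and 1 of the 44 had a summit in its span or within 3 kb of an end. This share was 2.27%. Of the 85 genes in the bands and 1 Mb on either side, which include these 44, 2 had a summit (2.35%). Outside the bands it was 1 of 41, and such counts are too small for the shares to be compared. The gene in the bands was POTEA (43292370 to 43365175), a member of a primate-specific ankyrin-repeat gene family. The peak within its span, from 43310407 to 43310545, was weak, with 6 reads, a fold of 3.29 and a −log10 q of 0.752. The small nuclear RNA pseudogene RNU6-104P (43303376 to 43303482) lies inside the POTEA span, and its nearest summit was 6.95 kb away. LINC00293 (46840886 to 46855785), a long noncoding RNA on the long-arm side, was 320 kb from any summit. The gene table gives no exons or strand, so the place of the POTEA peak relative to exons is not given. Between CYP4F44P, which ends at 43540927, and HSPA8P13, which starts at 46549089, no gene is annotated over 3.01 Mb, and 1506 of the 1515 peaks lay in that stretch.

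Within the dense block the peaks were spread evenly. The 17 bins of 100 kb wholly inside it held 69 to 97 peaks (median 81), with a mean of 81.4 and an SD over bins of 8.91. The variance over bins was 0.976 times the mean; a value of 1 is that of points scattered independently. The densest bins, from 44400001 to 44500000 and from 44900001 to 45000000, had 97 peaks each, and the next, from 45400001 to 45500000, had 90. The median fold of a bin ran only from 3.90 to 4.42, the median pileup from 8 to 10 reads and the median background from 1.08 to 1.13. Strong peaks numbered 5 to 15 per bin (median 12), with a variance of 0.718 times the mean.

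No trend in the number of peaks or in the share of strong peaks was visible along the block. Split into 3 equal lengths, it held 492, 502 and 487 peaks, with median folds of 4.23, 4.23 and 4.39. Strong peaks were 13.2%, 13.1% and 13.8% of these, with overlapping exact binomial intervals (10.3% to 16.5%, 10.3% to 16.4% and 10.8% to 17.1%). The share at the minimum background rose from 33.9% to 36.1% and 38.4%, with intervals that also overlap. The border between p11.1 and q11.1 at 45200000 cuts through the block without a step, with 81 peaks in the bin before it and 82 in the bin after it. More of the block lies in p11.1, which held 968 peaks (63.9%, interval 61.4% to 66.3%), whereas q11.1 held 547. Their median folds were 4.23 and 4.39, and 34.7% and 40.8% of their peaks were at the minimum background.

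High folds were rare inside the block, where only 4 peaks reached a fold of 10. The strongest (45423972 to 45424337, in q11.1) had 24 reads, a fold of 11.7 and a background of 1.13. The others, all in p11.1, lay at 44531407 to 44531625 (22 reads, fold 10.8), 44952487 to 44952650 (24 reads, fold 10.8) and 44916308 to 44916481 (21 reads, fold 10.3). The deepest peak of the block was a different one: 44243348 to 44243500 had 45 reads over a background of 9.59, which gave a fold of 4.34. The peak with the highest background, 12.4, at 44959299 to 44959508, had 39 reads and a fold of 2.98. The widest peak of the block, 582 bp from 44168443, had 11 reads and a fold of 5.64.

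Across the 1481 block peaks, pileup rose with background (Spearman 0.38, Pearson 0.53) and weakly with width (Spearman 0.21, Pearson 0.19). All of these peaks come from the same libraries and from a list limited by p-value, which needs more reads where the input is higher, so the correlations are descriptions.

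Summits in the block lay a median of 961.5 bp apart (quartiles 485 and 1615 bp). The mean was 1244 bp with an SD of 1080 bp, a ratio of 0.868. The closest pair was 94 bp apart, and 383 of 1480 gaps (25.9%) were under 500 bp. The widest gap was 11908 bp, from 44731833 to 44743741, and 14 gaps exceeded 5 kb. When summits were joined only up to 10 kb apart, that widest gap divided the block into runs of 559 and 922 peaks, and a run of 10 peaks (43969082 to 43982162) before the block was the next in size.

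The peaks outside the block formed small sets at its edges and scattered singles. The run of 10 before the block had a median fold of 4.55 and a highest fold of 6.34. After the block a run of 8, from 45928731 to 45943504, had a median fold of 4.48. Its strongest peak (45932417 to 45932602), with 16 reads, a fold of 8.29 and a −log10 q of 10.5, was the strongest outside the block and the high-fold group. The 7 singles ranged from a fold of 2.93 (5 reads, −log10 q 0.230), at both 45988759 to 45988858 and 46157247 to 46157346, to a fold of 5.37 (10 reads, −log10 q 4.12) at 43403306 to 43403374.

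Peaks were sparse beyond both edges of the bands. On the short-arm side the first peak inside was the first of the high-fold group, and the nearest outside (43023946 to 43024014) had 8 reads and a fold of 4.39. On the long-arm side the last peak inside (46520385 to 46520453) had 6 reads and a fold of 3.41, and the nearest outside (48158059 to 48158158) had 7 reads and a fold of 3.82. The 2 Mb beyond the bands held 2 peaks on the short-arm side and 3 on the long-arm side (1.00 and 1.50 per Mb), against 379 per Mb inside (exact Poisson interval 360 to 398).

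Compared with the other centromeres, that of chromosome 8 ranked 3 of 24 both by number of peaks and by density, behind chromosomes 13 (1382 per Mb) and 1 (584 per Mb). Its density was 2.46 times that of all other centromere bands together (exact conditional interval 2.33 to 2.59), which held 13686 peaks at 154 per Mb. Among strong peaks alone the ratio was 1.07 (interval 0.924 to 1.23), so no excess was detectable there. Without chromosome 13 in the comparison the ratio over all peaks was 3.16.

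**Figure D3:**
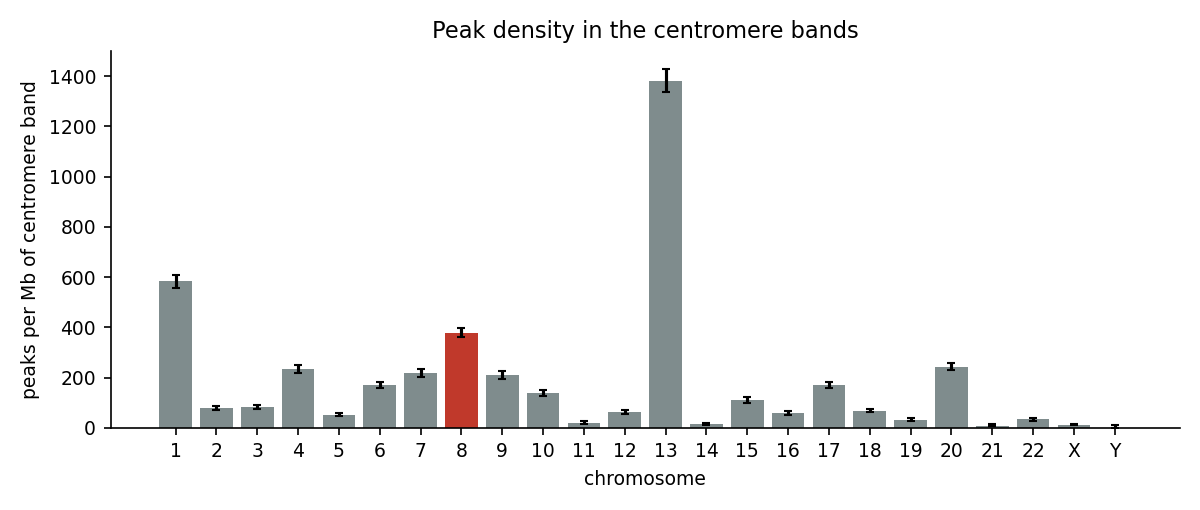
Peaks per Mb of centromere band for each chromosome, with exact Poisson 95% intervals as error bars; chromosome 8 is red. Its 379 per Mb lies below chromosomes 13 and 1 and above chromosome 20 (243 per Mb) and all the others.

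The chromosome 8 peaks were less deep than those of the centromeres of chromosomes 1 and 13, but their median depth was usual among centromeres. The median pileup was 9 reads on chromosome 8, 27 on chromosome 1, 17 on chromosome 13 and 11 on chromosome 20. The median background was 1.13, 6.20, 2.82 and 1.69 in the same order. Of the 19 other centromeres with at least 100 peaks, 13 had a median pileup of 8 to 10 reads, and the median over the 19 was 9. A pileup of 20 reads or more was reached by 1.25% of the chromosome 8 peaks (exact binomial interval 0.757% to 1.95%) and by 27.3% of the peaks of all other centromere bands (26.5% to 28.0%), a pooled value in which chromosomes 1 and 13 weigh heavily. Taken centromere by centromere, this share ran from 0.990% to 82.1% with a median of 10.2%, and 1 of the 19 was at or below chromosome 8. The minimum background was found at 36.9% of the chromosome 8 peaks, against 18.5% in the other bands (17.9% to 19.2%), 0.453% on chromosome 1 and 0.121% on chromosome 13. Among the 19 centromeres it had a median of 35.3%, and 8 of them were above chromosome 8, up to 61.4%. Strong peaks were 31.6% of those in the other bands (30.9% to 32.4%), 51.4% on chromosome 1, 53.8% on chromosome 13 and 13.6% on chromosome 20. Over the 19 the share ran from 4.95% to 53.8% with a median of 15.8%; its interval overlapped that of chromosome 8 in 8, lay wholly above it in 9 and wholly below it in 2. Median fold was 3.69 on chromosome 1, 4.79 on chromosome 13 and 3.97 on chromosome 20. Chromosome 8, at 4.23, ranked 5 of the 20 centromeres with at least 100 peaks. How much of these differences goes with the copies of satellite in the cells, or with how completely hg38 models them, was not tested.

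**Figure D4:**
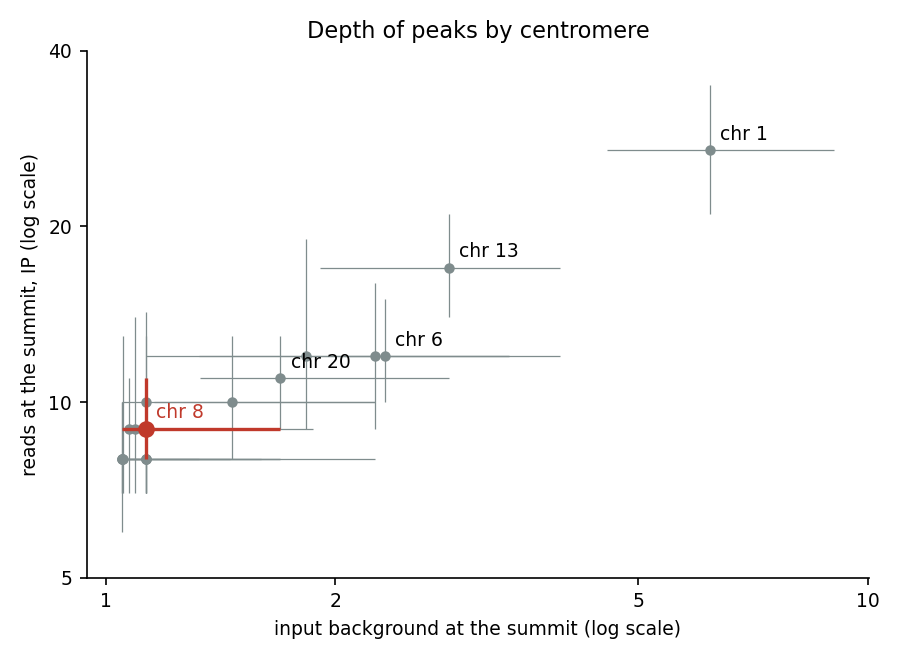
Median immunoprecipitated reads at the summit against median input background (both log scales) for the 20 centromeres with at least 100 peaks; bars span the quartiles over peaks, and chromosome 8 is red. Chromosome 8 (9 reads, background 1.13) sits among the many centromeres of low depth, far from chromosome 1 (27 reads, background 6.20).

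The same density could go with very different depth. In their densest 1 Mb windows, chromosomes 8 and 1 held 843 and 820 peaks, covering 12.1% of the window in each. Median pileup there was 9 reads on chromosome 8 and 28 on chromosome 1, and median background 1.13 and 6.77. Chromosome 13 had 2173 peaks in such a window and covered 45.9% of it, and chromosome 20 had 449 and covered 5.42%. Peaks were scattered about as evenly on chromosome 8 (variance over mean of 100 kb bins 1.12) as on chromosomes 1 (1.06) and 20 (1.07), while chromosome 13 had 0.594. These ratios rest on 10 bins each.

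No regular spacing of summits was detectable on chromosome 8. For each trial period, the mean cosine of the distances between summits is 1 where all distances are whole multiples of the period and near 0 where they are unrelated to it. Between 500 and 3500 bp, over 23711 pairs less than 20 kb apart, the highest mean cosine on chromosome 8 was 0.0189, at 3198 bp. On chromosome 1, with a like number of pairs (29377), it was 0.183, at 1022 bp. It was 0.0171 on chromosome 13 (139481 pairs) and 0.0196 on chromosome 20 (9433 pairs), so the low value was not particular to chromosome 8. Because the maximum falls as pairs are added, the other centromeres, all with fewer pairs than chromosome 8, are not compared. At longer periods the curves of chromosomes 8, 1, 13 and 20 oscillate alike, and the chromosome 8 maximum lies on that shared oscillation. The limit of 20 kb on distances is common to these curves, so the oscillation is not read here as a property of the centromeres. Around the length of an alpha satellite monomer, from 150 to 190 bp, the highest mean cosine on chromosome 8 was 0.0317 over 4624 pairs less than 4 kb apart, and that of chromosome 1 was 0.0274 over 5572 pairs. No stable most frequent distance was found either. From 1 to 3 kb, with counts smoothed over 3 bp, it was 1928 bp. That distance occurred in 7 pairs, against an average of 1.24 pairs per bp. Without smoothing it was 2655 bp, which occurred in more pairs than 1928 bp, in a number not given here.

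**Figure D5:**
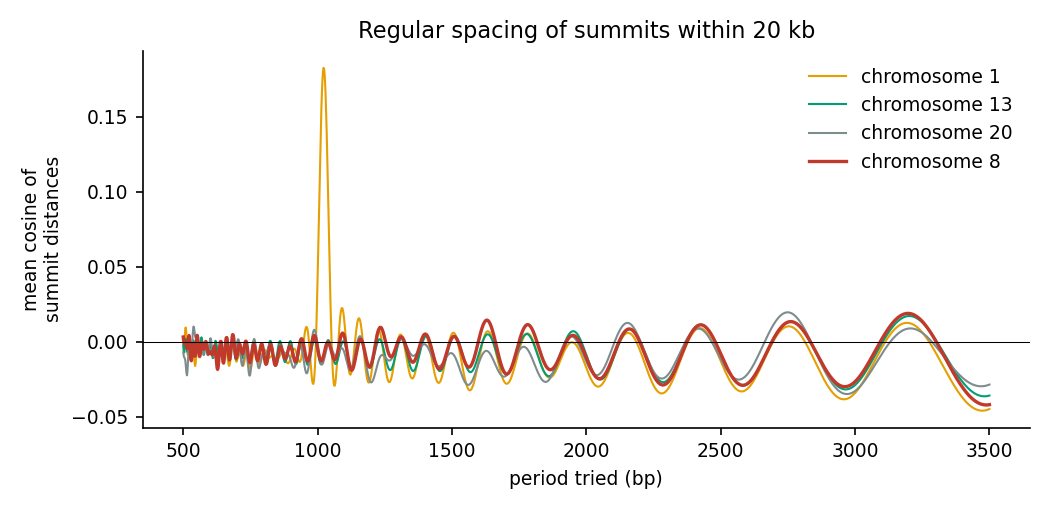
Mean cosine of the distances between summits up to 20 kb apart, against the trial period in bp, for the centromeres of chromosomes 8 (red), 1, 13 and 20. Chromosome 1 has a sharp maximum of 0.183 at 1022 bp, whereas chromosome 8 stays at or below 0.0189. Chromosomes 13 and 20 stay at or below 0.0171 and 0.0196.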

How the data were processed

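The peaks were called from 1 TRF2 immunoprecipitated and 1 input library of HCT116. Per the submitters' processing notes, the tools were MACS2 2.1.0, Bowtie2 2.3.2, ChIPseeker 1.36.0 and HOMER, with builds hg38 and GRCh38. Their settings, and what was done with duplicates or reads aligning to several places, were not given in the sources used here. Each deposited fold is a ratio over the input background, with the same constant added to both terms. The deposited −log10 p and −log10 q are the authors' peak caller's, and the deposited score is 10 times the −log10 p without its decimals. These deposited values were used only within the list. Summit positions are the deposited offset added to the peak start; coordinates are 1-based. No sequence of the build was used.

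Pileup and background were recovered as the whole number of reads for which (pileup + 1)/(background + 1) gave the fold and the upper Poisson tail gave the p-value. It matched 100% of peaks (tolerance 0.001 on −log10 p, largest residual 0.00014), with a 2nd candidate at 6 peaks, 0 of them in these bands. Library totals are not given, so depth is known only at summits.

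Centromere bands came from circlize 0.4.16 (R 4.3.3). Chromosome 8 genes came from the RefSeq table, of whose 2447 rows the 2414 in coordinate order were kept. Shares have exact binomial (Clopper-Pearson) and densities exact Poisson intervals at 95%. Recovery and the period search from 500 to 3500 bp were tested on simulated data. Every summit of a planted period lay near a multiple of it, so a spacing shared by only some summits was not tested. The search from 150 to 190 bp was not tested on simulated data. Named peaks were the 10 of highest fold, those within 10 kb of the strongest summit, the widest, the deepest, those beside each edge, the 3 densest bins and the 3 largest runs. Named genes were those with a summit of the bands and up to 6 without, plus the 2 that border the gene-free stretch. The deepest, widest and highest-background peaks of the block, and the strongest and faintest outside it, were chosen after their values were seen. The block limits, the high-fold groups, the densest 1 Mb windows and the mean cosine were also added after the data were seen. The members, lists and comparisons were chosen with earlier results of these data known. Calculations ran in Python 3.11.15 with pandas 2.3.3, scipy 1.17.1 and numpy 2.4.6, and plots in matplotlib 3.10.9.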

Additional observations from a re-analysis of the deposited data

How the results depend on the processing

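Of 42 other settings, 24 left their result within its counting interval (counts within 1.5 times) and 18 moved it. With only peaks at a −log10 q of 5 or more, the bands held 208 peaks, 2.85% of such peaks, the density ratio to the other centromere bands was 1.07, the median fold 6.34 and the number of runs 65; with a q-value of at most 0.05 the median fold was 4.46 and the number of runs 8. Fewer peaks enter both. Without chromosome 13 the density ratio was 3.16, and among bands with at least 100 peaks 2.20. The densest bin held 3.70% of the peaks with bins of 50 kb and 12.3% with bins of 200 kb, against 6.40%, which follows from bin size. Joining summits up to 5 kb apart gave 28 runs, against 13. The most frequent distance, reported from counts smoothed over 3 bp, was unstable. From 100 to 300 bp it was 294 bp (2 pairs) as reported, 163 without smoothing, 300 at a q-value of at most 0.05 and 214 among strong peaks. From 1 to 3 kb it was 1928 bp as reported, 2655 without smoothing, 2964 smoothed over 9 bp and 1342 among strong peaks. Leaving out the 7 peaks of the high-fold group moved none of the 5 results it was run on. No paired analysis was possible because each group held 1 library. At the minimum background, pileups near 5 to 7 reads were close to the limit of the list, and more reads were needed where the input was higher. Weaker enrichment was therefore not detectable.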
